A study of Mus musculus with 15 samples.

Results

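Transcripts of the left ventricle were compared between infarcted hearts labelled adult that had received adult T cells and hearts labelled adult that served as controls. The members are 7 of the 15 libraries of the series, chosen by their titles: 4 from recipients, numbered 1 to 4, and 3 from controls, numbered 5 to 7. All came from C57BL/6 mice, the treatment label of all is experimental myocardial infarction, and no other genotype, allele or agent is given. The protocol mentions 36 h after infarction, but for neonatal hearts only, so the interval in these hearts, their age in days, the number of T cells given and the animals behind each library are not stated. The p-values therefore measure the spread between these libraries, which may be technical. The other 8 libraries are neonatal hearts, with or without adult T cells. They entered the same model to estimate the spread and are otherwise used here only to check the labels.

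T cells recognise peptides on major histocompatibility complex (MHC) molecules through a receptor that signals by the CD3 chains and the kinase Lck. After an infarct they enter the myocardium, where they take part in the clearing of dead tissue and in scar formation. The newborn mouse heart can renew muscle for a short time after birth, and the adult heart largely cannot. Heart muscle is dominated by short, abundant messages for contractile proteins, ribosomes and the respiratory chain, while many nuclear regulators and the giant proteins of the sarcomere have long ones. A difference between libraries that runs with transcript length therefore moves whole functional groups at once. For this reason transcript lengths, of groups or of single genes, and differences before and after removal of a length trend are given for many groups below.

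The 7 libraries held 22448517 to 27775438 counts, and a floor of 3 counts equalled 0.108 to 0.134 CPM, the counts of a gene scaled to the size of its library. Xist, the X-inactivation RNA of females, was high in recipients 2 and 3 and control 5 and near 0 in the other 4, so both sexes were present in both groups. Levels of genes that mark the age and the injury of a heart, chosen after their values were seen, went in part against the label adult infarct. H19 and Igf2, imprinted growth genes that are shut down after birth, measured 712 to 918 and 710 to 917 CPM in the 7 libraries, against 1680 to 1900 and 1040 to 1320 in the 8 neonatal ones. Tnni1, the troponin I of the fetal and newborn heart, measured 988 to 1350 CPM against 1350 to 1750 in the neonatal libraries, and Tnni3, the adult form, 2810 to 4440 CPM, against 1560 to 2330 in the neonatal libraries. Spp1 (osteopontin), strongly made in healing infarcts, measured 1.27 to 43.6 CPM against 106 to 1060, and the neutrophil alarmin S100a9 4.1 to 13.3 CPM against 8.3 to 20 CPM, with overlap. Igf2bp1, an RNA-binding protein of the fetus, went with the label, at 0.888 to 2.19 CPM against 6.28 to 8.61. Whether these hearts were fully adult or carried a large infarct was not tested, and the groups are called recipients and controls below. Summed cardiomyocyte markers, 7 of 7 tested, were 54800 to 61700 CPM in recipients and 45700 to 47900 in controls, a sum carried by Myh6, Actc1 and Myl2. Ryr2 went the other way, at 460 to 542 and 614 to 658 CPM, and Pln overlapped, at 2770 to 4090 and 3390 to 4450 CPM. The 3 erythroid markers were 2940 to 4190 and 2290 to 2430 CPM, and the 3 atrial markers, 2 of them tested, 25.9 to 88.9 and 22.2 to 27.3 CPM. Fibroblast, endothelial, mural, macrophage, neutrophil, B cell and skeletal muscle sums overlapped between the groups. Thymus, lung, liver and fat markers were at 1.41 CPM or less in sum, and the part of the other cell types in the results below was not tested. In whole tissue, fewer cells of a type and less RNA per cell cannot be told apart.

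Recipients held more of the short messages and fewer of the long ones than controls. Of 16437 genes tested, 1406 differed (8.55%; edgeR, adjusted p below 0.05), 580 higher in recipients (3.53%) and 826 lower (5.03%). In 4125 genes (25.1%) the libraries of the 2 groups did not overlap. A transcript length was found for 15479 genes. In the shortest quintile, transcripts of 54 to 1640 nt, 383 genes rose and 11 fell, with a median log2 fold change of 0.20. In the next quintiles, up to 2548, 3532 and 5000 nt, 109, 48 and 26 genes rose and 22, 47 and 179 fell, with medians of 0.10, 0.01 and -0.07. In the longest quintile, 5001 to 123179 nt, 7 rose and 544 fell, with a median of -0.20. Most differences were small: 13 of the rises and 39 of the falls exceeded 2-fold. In edgeR 0 genes passed without recipient 4, without control 5 or without control 6, when 3554, 3615 and 3424 genes had an unadjusted p below 0.05, so every call named below was lost in each of these fits. Without recipient 2, 464 genes passed.

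For each library a slope was fitted, the change in log2 CPM relative to the gene's mean over all 15 libraries for each doubling of transcript length. The slopes were -0.0516, -0.0966, -0.061 and -0.105 in recipients 1 to 4 and 0.0201, 0.0445 and 0.00723 in controls 5 to 7. All 4 recipients were below all 3 controls, and recipients 2 and 4 had the steepest slopes. The difference of the means was -0.102 (exact two-sided permutation p = 0.0286 over 35 allocations, the smallest possible, and 0.0856 after Benjamini-Hochberg adjustment over 3 library measures). The 8 neonatal slopes ran from -0.0204 to 0.0952. Relative to the 7 libraries alone, the shortest genes stood above the mean by a median of 0.035 to 0.143 in recipients and below it in controls, at -0.118 to -0.100, and the longest genes stood the other way round.

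**Figure D1:**
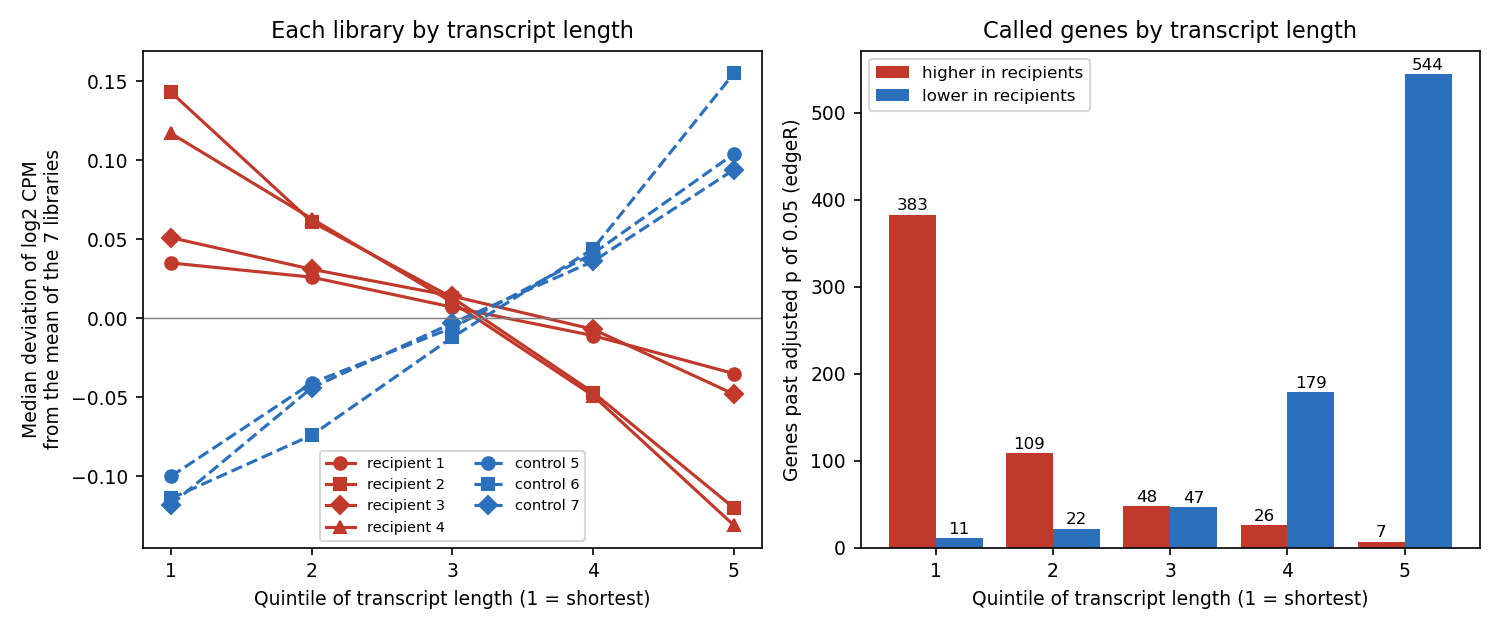
Left, the median deviation of log2 CPM from the mean of the 7 libraries, for genes in 5 bins of transcript length, with 1 line per library (solid red, recipients; dashed blue, controls). Right, the number of genes past an adjusted p of 0.05 in edgeR in each bin, higher (red) or lower (blue) in recipients. The lines of the groups cross between bins 3 and 4. The calls run from 383 higher and 11 lower in the shortest bin to 7 higher and 544 lower in the longest.

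Genes are not independent replicates, and the following are descriptions across them. The Spearman correlation of the difference was -0.46 with transcript length, -0.39 with coding length and -0.35 with the length of the 3′ untranslated region, but -0.10 with that of the 5′ untranslated region. Coding length and 3′ untranslated length each kept a negative correlation within quintiles of the other, at -0.43 to -0.37 and -0.40 to -0.31. The correlation with exon number was -0.21 and with the span of the gene in the genome -0.34. The relation with length was -0.45 outside the respiratory, ribosomal, contractile, glycolytic and mitochondrial lists. It was -0.33 among 342 zinc finger genes and -0.14 among 994 long noncoding RNAs. Guanine and cytosine content moved with the difference as well, at 0.37, and still at 0.28 to 0.38 within quintiles of length. The relation with length also depended on the level of the gene: from the quintile of genes with the lowest level to that with the highest, it was -0.11, -0.45, -0.64, -0.69 and -0.69.

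To keep apart what follows length from what does not, the trend of each library with length was fitted by a smooth curve and removed before the test. With 1 curve per library, 0 of 15479 genes passed in edgeR. The smallest adjusted p was 0.0641, shared by 20 genes, and 2983 genes (19.3%) had an unadjusted p below 0.05, 1787 higher (11.5%) and 1196 lower (7.73%). The count was also 0 with limma voom, while removal of a trend with length and base content together left 134 calls and removal of a trend with coding length 323. The spline took up 13.1% of the variance of the log2 fold changes over genes. It left a residue in abundant genes, where the correlation with length was still -0.20 and -0.16 in the highest 2 quintiles of level. A trend fitted separately within deciles of level, chosen after this was seen, brought these to -0.02 and -0.04 and left 0 calls with a smallest adjusted p of 0.0555. It also removes the shift of each class of level, which is not a matter of length: the most abundant quintile had a median of 0.10 with 1 curve removed. A version that keeps this shift was therefore run too. The versions are called length-removed, level-specific and shift-kept below.

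**Figure D2:**
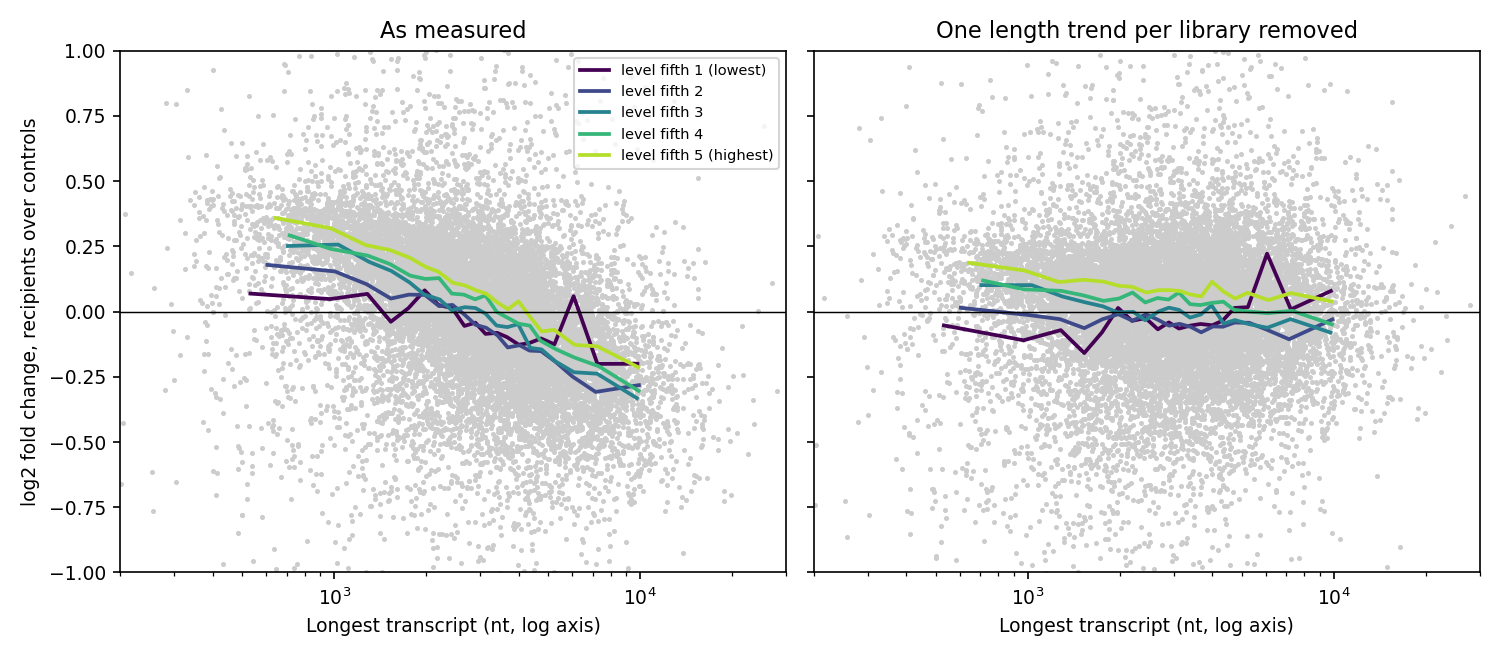
Each grey point is 1 gene, placed by the length of its longest transcript (log axis) and its log2 fold change, before (left) and after (right) removal of 1 length trend per library. Lines join medians over bins of length holding at least 20 genes, for 5 classes of mean level. Before removal the lines of the more abundant classes fall steadily from short to long genes, and after removal the short genes of the most abundant class remain above 0.

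How many of the called genes follow length depended on how the trend was drawn. A called gene was counted as following length when at least 50% of its log2 fold change, with the same sign, went with the trend. With 1 curve per library 50 of 573 rises and 237 of 803 falls did so. With the level-specific trend it was 377 of the rises (65.8%) and 297 of the falls (37.0%), which counts the shift of each level class as length. With that shift kept it was 309 (53.9%) and 262 (32.6%), and with length and base content within levels 404 and 397. Over all 11 ways of drawing the trend, 398 called genes never counted as following it and kept an unadjusted p below 0.05 in each, 118 higher and 280 lower in recipients. They were picked by their values in this comparison, so their number is a description. Genes without a coding sequence could not be among them, because 1 of the trends used coding length. The 118 had a median longest transcript of 2744 nt and a median coding length of 1068 nt, the 280 had 4450 and 2144 nt. Their median guanine and cytosine contents were 52.3% and 46.1%. This remainder was still unevenly spread over length: 15 of the 118 and 7 of the 280 lay in the shortest quintile, and 7 and 106 in the longest.

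**Figure D3:**
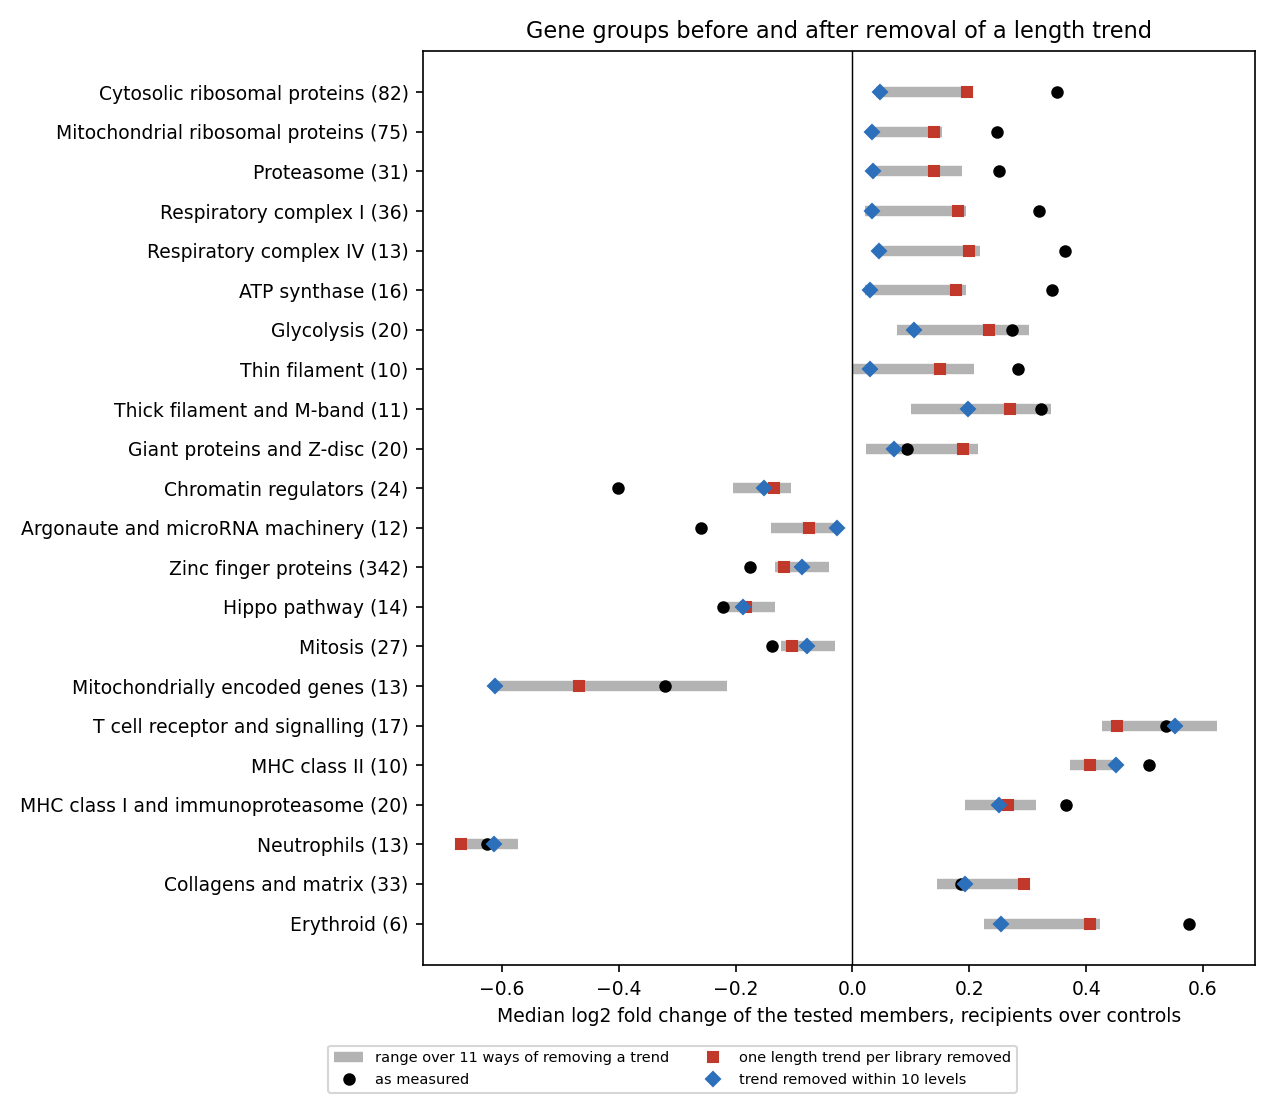
Median log2 fold change of 22 gene groups (tested members in parentheses) as measured (black), with 1 length trend per library removed (red) and with trends removed within levels (blue), and the range over 11 ways of removing a trend (grey). The ribosomal, proteasomal and respiratory groups move towards 0, furthest where a level shift is removed as well, chromatin regulators keep -0.20 to -0.11, and the T cell, MHC class II, neutrophil and Hippo groups change less.

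The cytosolic ribosome, whose proteins are encoded by short and very abundant messages (median length 897 nt), moved together. Of its 82 tested genes 48 rose (58.5%) and 0 fell, against 3.53% higher over all genes and 12.4% over the shortest quintile. All 82 had positive values, and the median log2 fold change was 0.35 against 0.00 over all genes tested. The median was 0.20 length-removed, 0.15 shift-kept and 0.05 level-specific, with a range of 0.04 to 0.21 over all ways of drawing the trend. Mitochondrial ribosomal proteins, which translate the messages of the organelle's own genome, rose in 23 of 75 (30.7%) with none lower. Genes of the proteasome, the protease that degrades ubiquitin-tagged proteins, rose in 12 of 31 (38.7%) with none lower. Their medians were 0.25 and 0.25, or 0.14 and 0.14 length-removed, 0.05 and 0.10 shift-kept and 0.03 and 0.04 level-specific. For the proteasome and the cytosolic ribosome the level-specific value thus rests in large part on the removal of a level shift. Reads of ribosomal protein genes can be shared with their many pseudogenes, so single members are not described.

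Nuclear genes of the respiratory chain behaved likewise. Of 36 genes of complex I, which takes electrons from NADH, 13 rose (36.1%) and all 36 values were positive, with a median of 0.32. The share of rises was 3.53% over all genes and 12.4% over the shortest quintile. In complexes II and III 3 of 14 rose (21.4%), in complex IV 3 of 13 (23.1%) and in the ATP synthase 9 of 16 (56.2%). Their medians were 0.24, 0.36 and 0.34, with none lower. The medians of these 4 groups were 0.14, 0.13, 0.16 and 0.14 shift-kept and 0.03, 0.02, 0.05 and 0.03 level-specific, and the difference between these versions is the level shift. Some members have a longest annotated transcript outside the shortest quintile. In complex I the 28 members within it had a median of 0.33 and the 8 others one of 0.28, and in the ATP synthase the 12 within it had 0.35 and the 4 others 0.22. In the proteasome it was 0.27 for 17 and 0.23 for 14. In the mitochondrial ribosome the 45 members of the shortest quintile had a median of 0.27 and the 30 others, with a median transcript of 3182 nt but a median coding length of 680 nt, one of 0.23. In the cytosolic ribosome the medians were 0.35 for 72 members and 0.28 for the other 10, with 2329 nt and 570 nt.

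Of 20 glycolysis genes 5 rose (25%, against 3.53% of all genes) and 19 values were positive. The median was 0.27, or 0.23 length-removed, 0.21 shift-kept and 0.11 level-specific. Gapdh, the glyceraldehyde phosphate dehydrogenase, has a transcript of 1420 nt and measured 1121, 1170, 1244 and 1404 CPM in recipients and 979, 896 and 1019 in controls. Every recipient was above every control, with a log2 fold change of 0.36 ± 0.094 (SE; edgeR adjusted p = 0.0313). Its values were 0.23 length-removed, 0.21 shift-kept and 0.10 level-specific. Pgam2, the muscle phosphoglycerate mutase (840 nt), rose by 0.43 ± 0.095 and had 0.22 shift-kept and 0.11 level-specific, with 0.06 to 0.35 over all trends. Aldoc, a minor aldolase in heart with a transcript of 2786 nt, was less tied to length. It measured 3.01, 2.87, 2.69 and 3.01 CPM in recipients and 1.68, 1.90 and 1.42 in controls, rose by 0.80 ± 0.21 (edgeR adjusted p = 0.0295), and stayed at 0.76 to 0.85 over all 11 trends. Pfkl, the liver-type phosphofructokinase with a transcript of 3730 nt, did not pass (0.32 ± 0.11, adjusted p = 0.0706), and its length-removed value was 0.37.

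In the sarcomere lists the called rises were mostly of short transcripts and the called falls of long ones, but most members were positive at both lengths. The thin filament (median 1460 nt) had 8 of 10 positive values and a median of 0.28, the thick filament and M-band (4163 nt) 9 of 11 and 0.32, and the giant proteins and Z-disc (5068 nt) 14 of 20 and 0.09. Tnnc1, the calcium-binding troponin C of heart (721 nt), measured 2554, 2999, 2758 and 2849 CPM in recipients and 2223, 2066 and 2109 in controls. All recipients were higher, by 0.39 ± 0.098 (edgeR adjusted p = 0.0271), and the value was 0.22 length-removed, 0.17 shift-kept and 0.06 level-specific. The myosin light chains Myl2 and Myl3 (889 and 937 nt) rose by 0.35 and 0.32, the cardiac actin Actc1 (1473 nt) by 0.33, the titin cap Tcap (948 nt) by 0.36 and Cryab (1117 nt), a small heat shock protein that guards filaments, by 0.36. In this order their values were 0.14, 0.12, 0.19, 0.16 and 0.18 shift-kept and 0.03, 0.01, 0.08, 0.05 and 0.07 level-specific. Over all trends they reached at most 0.22, 0.21, 0.32, 0.23 and 0.23 and at least 0.03, -0.03, 0.08, 0.01 and 0.04. At the other end stood Ttn, titin, the molecular spring of the sarcomere, on chromosome 2, with a longest transcript of 106824 nt. It measured 1140, 1128, 1148 and 1044 CPM in recipients and 1555, 1602 and 1770 in controls, and fell by 0.56 on the log2 scale (SE 0.16, edgeR adjusted p = 0.0422). Its length-removed value was -0.27, with -0.31 to -0.06 over all trends. Nebl, the nebulin-like protein of the Z-disc (8079 nt), fell by 0.36, and -0.13 was left with length removed, with -0.42 to -0.02 over the trends.

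Actn2, Myh6 and Myh7 did not follow their length. Actn2, the actin cross-linker of the Z-disc, has a transcript of 3013 nt, where the median difference over genes was near 0. It measured 1969, 2018, 2401 and 2307 CPM in recipients and 1648, 1548 and 1857 in controls, rose by 0.37 ± 0.10 (edgeR adjusted p = 0.0384) and kept 0.23 to 0.48 over the trends. The myosin heavy chains Myh6 and Myh7, the fast and slow motors, have transcripts of 6113 and 6230 nt. Myh6 measured 15790, 16310, 15680 and 17740 CPM in recipients and 12870, 11160 and 14270 in controls, and Myh7 2046, 1995, 1943 and 2766 against 1478, 1272 and 1905. No control reached the recipients in either gene, and neither passed (0.36 ± 0.14, adjusted p = 0.111, and 0.50 ± 0.18, adjusted p = 0.0855). Genes of this length had lower values on the whole, and the length-removed differences of the pair were larger, 0.54 and 0.68, with unadjusted p of 0.00231 and 0.00334. The calcium-handling genes named here did so more. S100a1, a calcium sensor that raises contractility (677 nt), rose by 0.45 ± 0.10 and had 0.12 level-specific, with 0.09 to 0.3 over the trends. Cacna2d1, a subunit of the L-type calcium channel (7436 nt), fell by 0.36 and was left with -0.14 length-removed. Ryr2, the calcium release channel (16814 nt), had a value of -0.31 ± 0.14 without passing (adjusted p = 0.147) and of 0.00 with length removed.

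**Figure D4:**
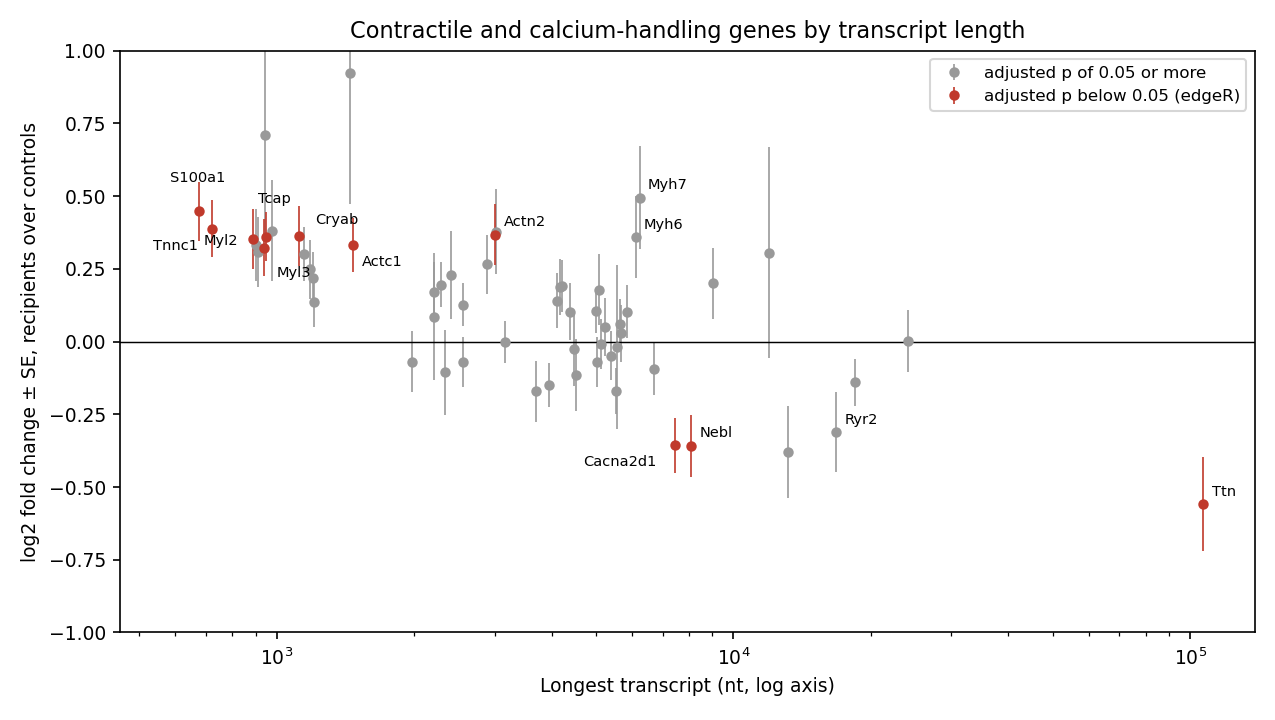
The log2 fold change of 60 tested genes of the thin filament, thick filament, Z-disc and calcium-handling lists against the length of the longest transcript (log axis), with bars of 1 standard error; red points passed an adjusted p of 0.05 in edgeR. Myl7 lies above the plotted range. The called rises lie at short lengths, apart from Actn2, and the called falls Cacna2d1, Nebl and Ttn at long ones.

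Chromatin regulators had the largest share of falls among the 50 lists (62.5%, against 5.03% of all genes and 17.6% of the longest quintile). Of 24 genes, with a median length of 10366 nt, 15 fell and 0 rose, 23 values were negative, and the median was -0.40. It was -0.14 length-removed and -0.15 level-specific, with a range of -0.20 to -0.11. Tet2, which oxidises methylated cytosine, measured 21.2, 17.6, 21.1 and 14.7 CPM in recipients and 31.8, 32.9 and 26.2 in controls. The groups were well apart, Tet2 fell by 0.70 on the log2 scale (SE 0.14, edgeR adjusted p = 0.018), and the value stayed between -0.52 and -0.36 over all trends. Ash1l, a histone H3 lysine 36 methyltransferase (11644 nt), fell by 0.65 (SE 0.12) and kept -0.42 to -0.32. The lysine 4 methyltransferases Kmt2a and Kmt2d fell by 0.64 and 0.71 and kept -0.40 to -0.25 and -0.54 to -0.33. Nsd1, another lysine 36 methyltransferase, fell by 0.37 and was left with -0.09 length-removed, with -0.49 to -0.06 over the trends. Smarca4, the motor of the BAF remodelling complex (6376 nt), was the 1 member with a positive value, 0.14 ± 0.071, which did not pass (adjusted p = 0.219). With length removed it was 0.32, with an unadjusted p of 0.000426.

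The Argonaute and microRNA machinery had 3 falls among 12 genes (25%, against 5.03% of all genes and 17.6% of the longest quintile). The median was -0.26, or -0.075 length-removed, -0.08 shift-kept and -0.03 level-specific. Ago2, the Argonaute that cleaves its targets (chromosome 15, 73101625 to 73184947 in GRCm38.p6, the build of all positions given here), has a transcript of 13800 nt of which 2580 nt code for protein. It measured 17.8, 13.8, 20.9 and 19.7 CPM in recipients and 33.0, 43.2 and 26.7 in controls, and fell by 0.93 on the log2 scale (SE 0.25, edgeR adjusted p = 0.0431). Between -0.83 and -0.49 remained over the trends. Tnrc6a, the Argonaute partner that recruits deadenylases, fell by 0.46 and kept -0.27 to -0.21. Of 343 zinc finger protein genes 36 fell and 3 rose (10.5% and 0.875%, against 5.03% and 3.53% of all genes), with 71 positive values and a median of -0.18. The 24 members of the shortest quintile had a median of -0.09 before and -0.21 after removal, against 0.20 before removal over all genes of that length.

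Some genes ran against the trend. In the longest 2 quintiles 28 called genes of at least 5 CPM rose with no overlap of libraries. Predicted genes, clone names, pseudogenes, cytosolic ribosomal protein genes and antigen receptor segments were left out of this count. Without these rules the called rises were 26 and 7 genes (0.839% and 0.226% of the 2 quintiles), against 3.53% of all genes. Cdc37, the cochaperone that loads kinases onto Hsp90 (transcript 7851 nt), measured 206, 218, 194 and 225 CPM against 171.4, 171.5 and 172.5. All recipients were above all controls. It rose by 0.30 ± 0.076 (edgeR adjusted p = 0.0278) and kept 0.28 to 0.54. Adgb, androglobin, a globin with a protease domain (5218 nt), rose by 0.70 ± 0.19 and kept 0.84 to 0.93. Fbxl22, an F-box protein of the Z-disc (3935 nt), rose by 0.42 ± 0.11, Clpb, a mitochondrial disaggregase (4627 nt), by 0.24 ± 0.063 and Ptges2, a prostaglandin E synthase (4978 nt), by 0.34 ± 0.078. Their coding lengths were often short for their transcripts: the 28 genes had a median coding length of 777 nt, against 2283 nt over all 6191 tested genes of these 2 quintiles, 6068 of them with a coding sequence. Mrpl17 shows this most plainly, with 528 coding nt in a longest transcript of 7300 nt. It rose by 0.30 ± 0.085 and had a length-removed value of 0.51, with 0.16 to 0.58 over the trends.

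At the short end, in the shortest 2 quintiles, 23 called genes of at least 5 CPM fell with no overlap, with the same kinds of genes left out. Without these rules the called falls were 11 and 22 genes (0.355% and 0.709% of the 2 quintiles), against 5.03% of all genes. Ccnl1, cyclin L1, which associates with splicing kinases (chromosome 3, 65945908 to 65962029; 2169 nt), measured 29.2, 28.0, 29.1 and 26.7 CPM in recipients and 36.3, 33.2 and 38.1 in controls. All recipients were lower, by 0.34 on the log2 scale (SE 0.074, edgeR adjusted p = 0.0187), and the length-removed value was -0.40. Tra2a, an activator of splicing (1799 nt), measured 44.8, 45.7, 35.7 and 40.9 CPM against 56.8, 53.6 and 50.9, and fell by 0.36 (SE 0.084). Snrnp48, a protein of the minor spliceosome (1785 nt), fell by 0.44 (SE 0.099). Their values over all trends were -0.46 to -0.31, -0.52 to -0.36 and -0.58 to -0.37. Further falls at this end were Plscr2, a phospholipid scramblase (by 0.52), Sgcd, the delta-sarcoglycan of the muscle membrane (by 0.45), and Purg, a nucleic acid binding protein (by 0.50). Vsig2 and Spaca6 fell by 0.75 and 0.91, with control 7 highest in both, at 12.4 and 20.4 CPM, and control 6 nearest the recipients.

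With length removed no gene passed, and genes among those with the smallest p are given by their values. Higher in recipients were Spata5, an AAA ATPase of ribosome maturation (length-removed 0.53), Bloc1s5, a subunit of a lysosome biogenesis complex (0.45), and Atox1, a copper chaperone (0.34). Their unadjusted edgeR values of p ran from 2.03e-05 to 5.19e-05. Spata5 measured 40.1, 36.5, 35.6 and 42.1 CPM in recipients and 23.8, 26.7 and 31.0 in controls, a rise of 0.51 ± 0.0998 in the test without removal (edgeR adjusted p = 0.018). Over the trends Spata5 kept 0.48 to 0.62, Bloc1s5 0.16 to 0.49 and Atox1 (541 nt) 0.12 to 0.39.

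Lower were Med13l, a subunit of the kinase module of Mediator (length-removed -0.49), Dpy19l4, of a family of mannosyltransferases (-1.03), Pnisr, a serine- and arginine-rich nuclear protein (-0.51), and Ccnl1 (-0.40). Zfc3h1, part of a complex that sends nuclear RNA to the exosome, had -0.43, Ccnt2, a cyclin of the elongation factor P-TEFb, -0.56, and Luc7l2, a factor of the U1 particle in splicing, -0.38. Their unadjusted edgeR values of p ran from 1.06e-05 to 7.1e-05. Med13l measured 22.8, 17.9, 22.8 and 19.3 CPM in recipients and 32.9, 37.0 and 33.6 in controls, a wide gap, and passed in 5 of the alternatives with a trend removed, the most of any gene. Pnisr measured 40.9, 42.2, 39.4 and 35.8 CPM against 61.6, 58.6 and 60.99. Ints6l, a homologue of an Integrator subunit (3766 nt), measured 21.3, 22.1, 21.3 and 20.4 CPM against 34.6, 30.5 and 31.7 and had -0.55. Elk4, a ternary complex factor of serum response genes (4433 nt), fell by 0.91 (SE 0.19, edgeR adjusted p = 0.018) in the test without removal and kept -0.91 to -0.76.

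**Figure D5:**
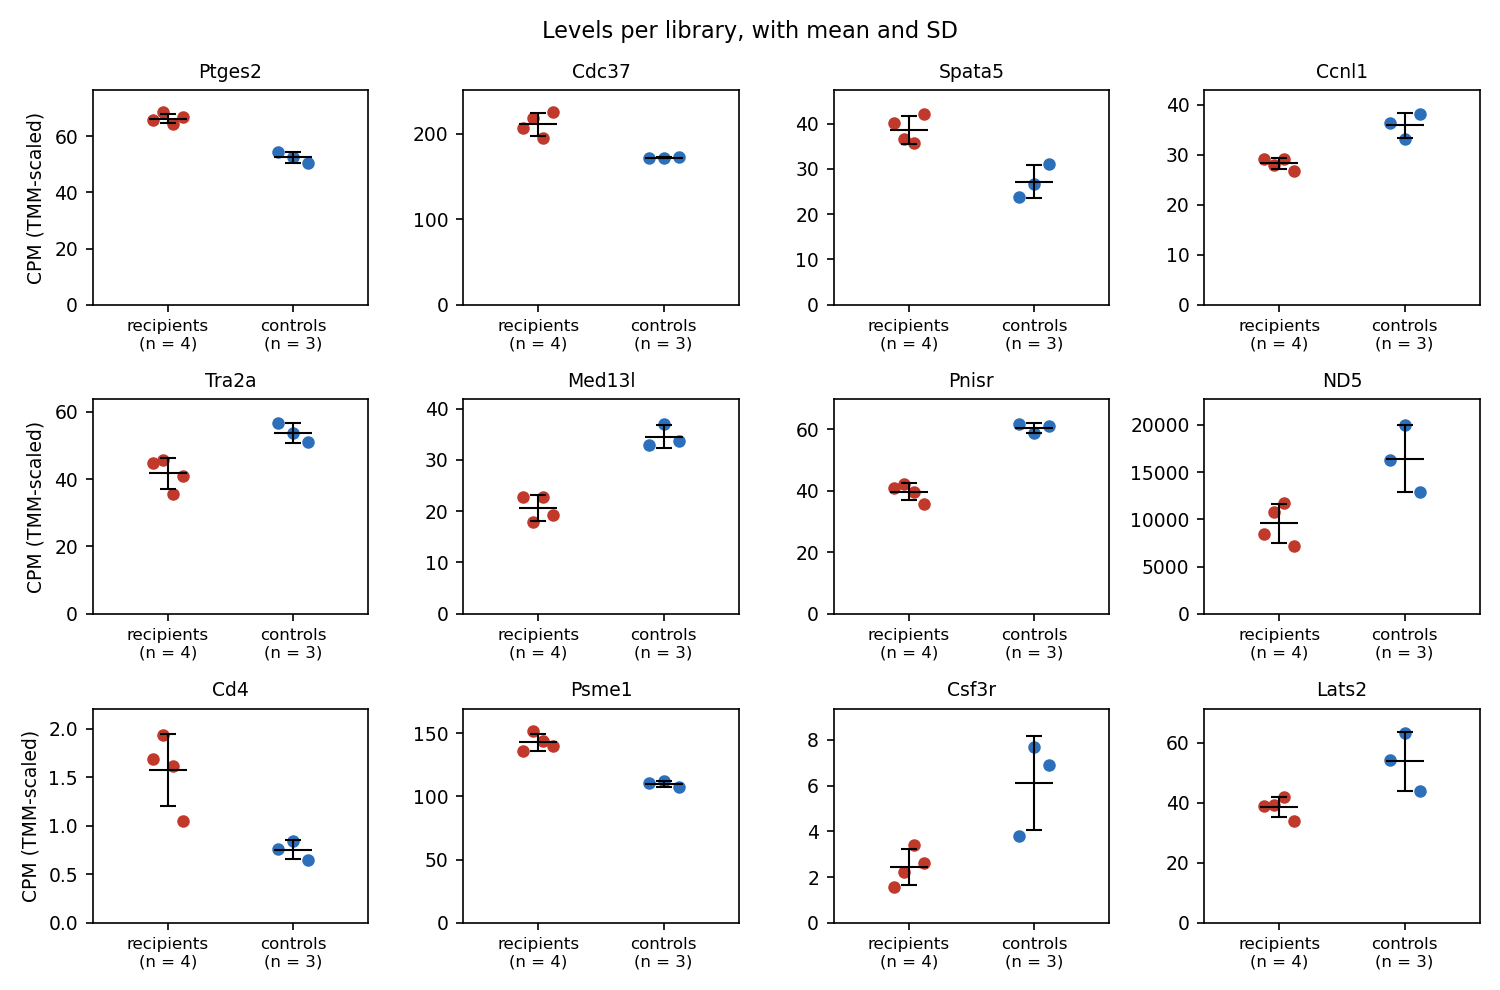
Levels (CPM after TMM scaling) in each library for 12 genes, with recipients in red and controls in blue, and the mean and SD as black bars; the axes start at 0. The genes were chosen with earlier results of these data known. In each of the 12 panels the libraries of the 2 groups do not overlap, as in 25.1% of all genes tested. Cd4 was the 1 of 17 tested T cell genes without overlap, and Csf3r 1 of 2 among 13 neutrophil genes.

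T cell transcripts were scarce. Cd3d, Cd3e and Cd3g, which encode the CD3 chains of the receptor, summed to 42, 38, 27 and 27 counts in recipients and 16, 25 and 15 in controls, or 1.82, 1.58, 1.20 and 0.972 CPM against 0.602, 0.981 and 0.590 of the unscaled total. The highest control slightly exceeded the lowest recipient. The sum with the zeta chain Cd247, the measure chosen first, did not separate the groups, at 3.83 ± 0.467 (SD, n = 4) and 3.79 ± 0.648 CPM (n = 3; exact two-sided permutation p = 0.914). Cd247 made up most of it and measured 2.64 ± 0.142 and 3.25 ± 0.601 CPM after TMM scaling, whereas the sums are of the unscaled total. Without Cd247 the sum was 1.39 ± 0.379 and 0.724 ± 0.222 CPM (exact permutation p = 0.0857). Cd8a had 13, 5, 10 and 5 counts in recipients and 4, 5 and 4 in controls, and the interferon gamma gene Ifng had 3 counts in recipient 2 and 0 in the other 6 libraries.

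Among 17 tested genes of the T cell list 1 rose (5.88%, near the 3.53% of all genes) and 0 fell, 14 values were positive, and the median was 0.54, or 0.45 length-removed and 0.43 to 0.62 over all trends. Cd4, the co-receptor of helper T cells that some myeloid cells also carry (chromosome 6, 124864693 to 124888247; 3108 nt), measured 1.69, 1.93, 1.61 and 1.05 CPM in recipients and 0.760, 0.846 and 0.649 in controls. All recipients were above all controls. It rose by 1.05 ± 0.31 (edgeR adjusted p = 0.0443) and kept at least 1.03 over the trends. Lck, the kinase of the receptor, measured 2.004, 1.37, 1.57 and 1.02 CPM against 0.720, 1.10 and 0.730 and did not pass (0.80 ± 0.30, adjusted p = 0.0918). Neither did the costimulatory receptor Cd28 (0.91 ± 0.37) or the adaptor Lat (1.08 ± 0.47). The mean of the list was highest in recipients 1 and 3, at 0.49 and 0.47 above the mean of the 7 libraries on the log2 scale, while recipients 2 and 4 were at -0.06 and -0.04 and the controls at -0.35 to -0.23. Thymus markers moved with this in recipient 1, which had 0.865 CPM of Dntt and 0.547 of Rag1, genes of antigen receptor assembly in immature lymphocytes. Recipient 3 had 0.196 CPM of Rag1, and no control had more than 0.12 CPM of either. The sum of 3 thymus markers reached 1.41 CPM in recipients and 0.20 in controls, a level like that of the CD3 chains, and its part in the T cell values was not tested.

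Antigen presentation genes had mostly positive values, with an uneven spread among recipients. All 10 MHC class II genes were positive, none passed, and the median was 0.51, or 0.37 to 0.45 over the trends. Cd74, the invariant chain, measured 18.6, 13.3, 32.5 and 28.5 CPM in recipients and 12.6, 12.1 and 14.5 in controls. Recipients 3 and 4 were high and recipient 2 lay within the controls (0.83 ± 0.33, edgeR adjusted p = 0.128). Of 20 genes of MHC class I and the immunoproteasome 2 rose (10%), and 19 were positive, with a median of 0.37. The share of rises was 3.53% over all genes and 12.4% over the shortest quintile, where both lie. These were Psme1 and Psme2, the subunits of the PA28 activator of the proteasome (1112 and 962 nt), which rose by 0.38 and 0.36. They had 0.19 and 0.12 shift-kept and 0.08 and 0.12 level-specific, with 0.05 to 0.29 and 0.11 to 0.27 over the trends. Tapbp, tapasin, which loads peptides (2898 nt), measured 76.5, 73.5, 79.3 and 86.2 CPM against 68.6, 60.8 and 66.6 and did not pass (0.27 ± 0.097, adjusted p = 0.082), with 0.17 to 0.29 over the trends. B2m, the light chain of class I, measured 430 CPM in recipient 3 and 116 to 142 in the other recipients, against 110 to 138 in controls. The 22 interferon gamma response genes had a median of 0.04, with 0 calls.

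Neutrophil genes had mostly negative values, with 0 calls among 13, 2 positive values and a median of -0.63 that stayed at -0.67 to -0.57 over the trends. Csf3r, the receptor of the neutrophil growth factor G-CSF, measured 1.55, 2.21, 3.42 and 2.59 CPM in recipients and 3.80, 7.70 and 6.90 in controls, without overlap, and did not pass (-1.33 ± 0.45, edgeR adjusted p = 0.0808). Camp, cathelicidin, measured 0.188 to 0.376 CPM and 0.381 to 0.852 CPM. S100a9 overlapped, at 4.10 to 10.96 and 6.08 to 13.3 CPM. By the mean of the list, control 5 and recipients 1, 2 and 4 were low, at -0.65 to -0.26, and controls 6 and 7 high, at 0.77 and 0.66, with recipient 3 at 0.33. Macrophage genes were level, with a median of 0.01 over 15 genes.

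Messages of the mitochondrial genome are short, and their values were mostly negative. They made up 14.76, 17.63, 16.8 and 12.61% of counts in recipients and 20.12, 21.4 and 17.98% in controls, 15.45% ± 2.24 (SD, n = 4) against 19.83% ± 1.73 (n = 3; exact two-sided permutation p = 0.0571, adjusted 0.0856). Recipient 2, the highest of its group, was just below control 7, the lowest of its group. Of 13 genes 3 fell (23.1%, against 5.03% of all genes and 0.355% of the shortest quintile) and 0 rose. The median was -0.32, or -0.47 length-removed and -0.61 to -0.21 over the trends. ND5, a core subunit of complex I (1824 nt), measured 8488, 10810, 11770 and 7157 CPM in recipients and 16310, 19980 and 12910 in controls, all lower, and fell by 0.78 on the log2 scale (SE 0.21, edgeR adjusted p = 0.0385). ND4L and ND4, which overlap and can share reads, fell by 1.18 and 0.49. COX1, the catalytic subunit of complex IV, had -0.39 ± 0.16 and CYTB, cytochrome b of complex III, -0.32 ± 0.14, with overlap and without passing. The medians of the nuclear and the mitochondrially encoded lists thus had opposite signs.

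Among long noncoding RNAs kept in the nucleus, Rian (8089 nt), an imprinted RNA of the Dlk1-Dio3 locus, measured 25.5, 30.7, 25.3 and 24.1 CPM in recipients and 33.1, 33.4 and 33.6 in controls and fell by 0.34 (SE 0.10, edgeR adjusted p = 0.0483). Its length-removed value was -0.11, with -0.49 to 0.06 over the trends. Malat1, an abundant RNA of nuclear speckles (6983 nt), measured 119, 176, 102 and 108 CPM against 233, 200 and 214 and did not pass (-0.77 ± 0.27, adjusted p = 0.0909), with -0.93 to -0.50 over the trends. All 7 tested members of the list had negative values.

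In the Hippo pathway, a kinase cascade that restrains the growth of heart muscle, 5 of 14 genes fell and 0 rose. The share of 35.7% lower compares with 5.03% of all genes and 17.6% of the longest quintile. Of the genes that fell, Lats1, Lats2, Tead1 and Mob1b have transcripts in that quintile. The list had a median of -0.22 that was -0.18 length-removed and -0.22 to -0.13 over the trends. Lats2, a kinase that phosphorylates the coactivator YAP (5191 nt), measured 39.1, 39.5, 42.0 and 34.0 CPM in recipients and 54.2, 63.3 and 43.9 in controls, fell by 0.48 (SE 0.11, edgeR adjusted p = 0.0206) and kept -0.49 to -0.34. Tead4, a transcription factor that binds YAP (3076 nt), measured 3.46, 3.01, 3.72 and 3.65 CPM against 4.64, 6.26 and 4.59, fell by 0.57 and kept -0.68 to -0.50. Both the kinases and the factors at the end of the cascade were lower. Lats1 and Tead1, with transcripts of 7209 and 9964 nt, fell by 0.41 and 0.40, and at least 50% of each followed the single trend. Over all trends their values were -0.31 to -0.09 and -0.49 to -0.11. Mob1b, the cofactor of the Lats kinases, fell by 0.88, with -0.99 to -0.42 over the trends.

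Of 27 mitosis genes 4 fell (14.8%, against 5.03% of all genes and 17.6% of the longest quintile) and 0 rose, with a median of -0.14, and all 4 have long transcripts. Mki67 (10061 nt), the proliferation marker, fell by 0.37 and was left with -0.17 to -0.08 over the trends, and Aspm (9867 nt), a spindle pole protein, fell by 0.57 and was left with -0.34 to -0.24. Ect2 (4086 nt), the exchange factor of cytokinesis, fell by 0.52 (SE 0.15) and kept -0.46 to -0.27, and Smc4 (4316 nt), a condensin subunit, fell by 0.38. Among 22 DNA replication genes 0 were called and the median was 0.04.

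Matrix genes are long, with a median of 5172 nt, and yet 25 of 33 values were positive, with 0 calls and a median of 0.19, or 0.29 length-removed and 0.15 to 0.30 over the trends. Fn1, fibronectin (8315 nt), measured 510, 310, 407 and 685 CPM in recipients and 351, 296 and 519 in controls, and Col1a1, a chain of type I collagen (5930 nt), 1311, 800, 855 and 1598 against 804, 572 and 1344. Recipients 1 and 4 and control 7 were high in both, and the groups overlapped (0.30 ± 0.30 and 0.33 ± 0.35). Col6a2, of type VI collagen, had 0.29 ± 0.11 and, with length removed, 0.40 with an unadjusted p of 0.00119.

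Mt1, a metallothionein induced by metals and glucocorticoids (1085 nt), was the 1 of 10 natriuretic and stress genes that rose (10%). The share was 3.53% over all genes and 12.4% over the shortest quintile, where Mt1 lies. This gene measured 88.3, 80.0, 80.7 and 105.0 CPM in recipients and 61.4, 52.4 and 71.3 in controls, rose by 0.52 ± 0.11 (edgeR adjusted p = 0.018), and had 0.24 to 0.38 over the trends. Nppa, atrial natriuretic peptide, spread widely, at 836, 215, 749 and 3414 CPM against 502, 188 and 1051, and did not pass (1.17 ± 0.85, adjusted p = 0.414). Recipient 4 was more than 3-fold above the next library. Myl7, the atrial light chain, was highest in recipient 2 with 35.5 CPM, the other recipients having 2.15 to 9.28 and the controls 0.9998 to 3.22, so that atrial transcripts differed between libraries, and their part in the Nppa values was not tested. The beta-globin Hbb-bs measured 1526, 2153, 2280 and 1602 CPM against 1243, 1304 and 1249 (0.58 ± 0.32, adjusted p = 0.264), higher in all 4 recipients, with 0.25 to 0.43 over the trends.

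Further single genes with large called differences at each length were as follows. Enho, which encodes the secreted peptide adropin (1269 nt), rose by 0.69 ± 0.16 and kept 0.47 to 0.59. Slc25a33, a mitochondrial pyrimidine nucleotide carrier, rose by 0.51 ± 0.12, Siah2, a ubiquitin ligase of the hypoxia response, by 0.46 ± 0.12 and Nol12, a nucleolar protein, by 0.40 ± 0.12. Among the falls Zbed6, a transcriptional repressor encoded within an intron of Zc3h11a, so that reads of the host may be counted to it, measured 2.46, 1.79, 2.84 and 1.65 CPM against 6.32, 9.31 and 4.79 and fell by 1.65 (SE 0.32, edgeR adjusted p = 0.0181), with -1.53 to -1.33 left over the trends. Trim56, a ubiquitin ligase of antiviral signalling, fell by 1.01 (SE 0.24), Mir100hg, the host RNA of a microRNA cluster, by 0.83 (SE 0.19), Gk5, a glycerol kinase homologue, by 0.77, and Arl13b, a small GTPase of cilia, by 0.57. All 5 kept -0.40 or a larger fall over the trends.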

How the data were processed

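Polyadenylated RNA from 15 left ventricles was sequenced from oligo-dT selected, stranded libraries, per the labels' protocols. Per the submitters' processing notes, the authors used bcl2fastq 2.20.0.422, cutadapt 2.5, STAR 2.7.2b, featureCounts 1.6.4, DESeq2 1.24.0 and the build GRCm38.p6. They deposited 1 table of raw estimated counts, in fractions, for 39331 genes, of whose non-zero values 61.1% are whole. The strand setting, feature and rule for fractions are not given in the sources used here. The deposited length column equals the genomic span in 100% of genes and was not used as a transcript length.

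Counts were rounded. Genes were kept with filterByExpr (minimum count 10, minimum total 15), with TMM scaling. The test was the robust quasi-likelihood F test of edgeR 4.0.16 (R 4.3.3) on all 15 libraries in 4 groups, and recipients minus controls was tested two-sided with Benjamini-Hochberg adjustment over all genes. SE is the log2 fold change divided by the root of F. The median SE was 0.125. Transcript length is that of the longest transcript in the basic set of GENCODE M21, matched by symbol (27383 genes) or gene ID (382). Trends were natural splines of log2 length with 5 degrees of freedom, fitted to each library's deviation of log2 CPM (prior count 1) and entered as offsets. Within-level trends were fitted in 10 classes of level.

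Named genes are the largest called rises and falls in each length quintile, those against the trend, those with the smallest p after removal, the leading members of 50 gene lists, and fixed genes, with at least 5 CPM and no overlap except for list members, fixed genes and those after removal. Not all are printed, and some are not reported here. The genes, lists and rules were chosen with earlier results of these data known. The steps were tested on simulated data. Alternatives used limma 3.58.1 and DESeq2 1.42.0. Floors cover counting error only.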

Additional observations from a re-analysis of the deposited data

Results flagged for a closer look

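In 7 of 116 printed values 1 of the 4 recipients stood far from the other 3, judged by the gap to its neighbour as a share of the range. The limit was Dixon's 95% critical value, and about 1 in 20 passes it by chance. Recipient 3 was high in B2m (share 0.919, 429.6 CPM against a lowest of 116.4) and low in Vsig2 (0.963, 4.549 CPM against a highest of 5.875). Recipient 4 was high in Myh7 (0.875, 2766 CPM), Enho (0.859, 9.322 CPM) and Nol12 (0.913, 24.24 CPM) and low in Mob1b (0.885, 6.803 CPM), and recipient 2 was high in Actc1 (0.831, 15910 CPM).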

How the results depend on the processing

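No paired analysis was possible because the recipients are numbered 1 to 4 and the controls 5 to 7, with no number in common. Without trend removal, the count of called genes was within 1.5 times the 1406 of the analysis given above in 8 of 10 alternatives that kept all adult libraries. DESeq2 gave 2324, 1237 higher and 1087 lower, which turns the balance of 580 and 826. With the length slope of each library as a covariate 0 passed. All 4 recipient slopes were below all 3 control slopes, so this covariate takes up much of the comparison. Fits with it cannot separate the 2. Leaving out 1 library gave 0 to 1230. Scaling by relative log expression called 726 higher and 732 lower. With the trend removed, 50 genes passed in a fit of the 7 adult libraries alone, 5 among all genes with a count, 28 among genes with at least 100 counts on average, 134 with base content added, 323 with coding length, and, chosen after seeing the data, 13 and 7 with the level-specific trend that kept the shift of each class and with that including base content. Without any trend removed, 1463 of the genes with a length passed. With it removed, leaving out 1 library gave 0 to 148, the last without control 7. The correlation of the difference with length was -0.27 among all genes with a count, -0.61 from 100 counts and -0.056 with the covariate, and -0.47 to -0.42 leaving out 1 library. The slope difference ran from -0.112 to -0.0923 leaving out 1 library, where p cannot fall below 0.0667 or 0.1, the mitochondrial share difference from -5.31 to -3.44 points, and the CD3 difference from -0.323 to 0.302, with -0.14, -0.03 and -0.323 without recipient 1, recipient 2 and control 7. Signs turned with the covariate for Nebl (0.021), Nppa (-0.115), Col1a1 (-0.020), Cd3g (-0.027) and Ryr2 (0.169). With the trend removed they turned for Myl3 with length and base content within levels (-0.026) and Rian with base content (0.060), and for Ryr2 with 3 degrees of freedom (0.014), bins (0.002), median length (0.017) and the level-specific trend with the shift kept (0.021). Leaving out 1 library, Nppa ran from -0.072 to 1.721, B2m from -0.098 to 0.78 and Ryr2 from -0.032 to 0.022. The causes were not tested.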

Other observations

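Replication-dependent histone genes, whose messages usually end without a poly(A) tail, had 27 positive values among 29, with 0 calls in edgeR and a median log2 fold change of 0.42, or 0.20 to 0.36 over the trends. Immediate early genes had 5 positive values among 19, a median of -0.11 and 0 calls. The 8 tested B cell genes had a median of 0.18 and 0 calls.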
